A study of Homo sapiens with 6 samples.

Results

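The SLC25 genes encode the mitochondrial carriers, and their transcripts were compared between control and TCTP knockdown HepG2 cells. Members were the protein-coding rows whose symbol is SLC25A followed by a number, which gave 44 of the 26389 genes in the read count table, and the same 44 in the FPKM table. HepG2 is a human hepatocellular carcinoma line. The control libraries (shCtrl, n = 3) came from cells given a control short hairpin RNA plasmid, and the knockdown libraries (shTCTP, n = 3) from cells given a plasmid whose hairpin targets TCTP, the protein encoded by TPT1. All 6 samples thus carried a lipid-delivered hairpin plasmid in 1 cell line, and neither the hairpin sequences nor the share of cells that took up a plasmid is known here. The labels name 48 h as the harvest time for quantitative PCR only. They do not state that samples of 1 group were grown as separate cultures, and p-values therefore describe the spread between these libraries.

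Mitochondrial carriers sit mostly in the inner membrane, which lets few solutes through by itself, and each passes a narrow set of metabolites between cytosol and matrix. They bring in ADP, phosphate, fuels and cofactors and let out ATP, citrate, aspartate and citrulline, so that in liver they join the matrix to urea synthesis, glucose synthesis, fat synthesis and haem synthesis. A few members lie elsewhere, such as SLC25A17 in peroxisomes and SLC25A46 in the outer mitochondrial membrane. The members were grouped by substrate from textbook knowledge. SLC25A6, the common ADP/ATP carrier of many tissues, and SLC25A2, SLC25A31 and SLC25A52 were not analysed here.

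The libraries held 25427614 to 30486409 reads assigned to genes, of which the 44 carrier genes took 0.212 to 0.239%. Knockdown library 3 stood apart, its profile across genes correlating with those of the others at 0.977 on average, against 0.986 to 0.987 for the rest. TPT1 had 2575, 2249 and 2290 CPM in control and 2032, 1807 and 1559 CPM in knockdown libraries. CPM are reads scaled to a common library size by TMM, a normalization that assumes most genes do not change. Its log2 fold change was -0.40, with SE 0.17, and missed the threshold of an adjusted p under 0.05 over all genes (edgeR adjusted p = 0.396; exact two-sided permutation p = 0.1, the smallest that 3 against 3 libraries allow), so the target transcript was lower in every knockdown library without passing the test used below. Of 10 hepatocyte and hepatoma markers all were present, at a summed 17807 to 20624 FPKM in control and 15311 to 20422 FPKM in knockdown libraries. All 10 had negative log2 fold changes (-0.50 to -0.03), and 0 passed. Of these 10, 4 had groups separate downwards in CPM, beside 7.30% of all tested genes. The 6 analysed markers of other cell types summed to at most 3.95 FPKM. Nearly all of this was PDGFRB, at 1.82 to 2.65 FPKM, and CD68, at 0.74 to 1.69 FPKM, while CD3E, PECAM1 and VWF were at 0.03 FPKM or less. COL1A1 had 0.01 to 0.21 FPKM, overlapping groups and a fitted ratio of 2.29 between knockdown and control that did not pass (edgeR adjusted p = 0.370). FPKM are fragments per length of transcript and depth, the authors' values, which allow levels of different genes to be compared.

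One carrier rose after knockdown, SLC25A25, which exchanges ATP-Mg for phosphate under the control of cytosolic calcium. Of 39 members with enough reads to be tested, the edgeR quasi-likelihood fit called 1 higher and 0 lower (adjusted p under 0.05). Over all 14197 tested genes 1.26% were called higher and 0.148% lower, so the carriers' share of 2.56% higher rests on a single gene. At an unadjusted p under 0.05 the members counted 2 of 39 (5.13%), against 11.1% of all tested genes. The second was SLC25A44, the carrier of branched-chain amino acids.

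**Figure D1:**
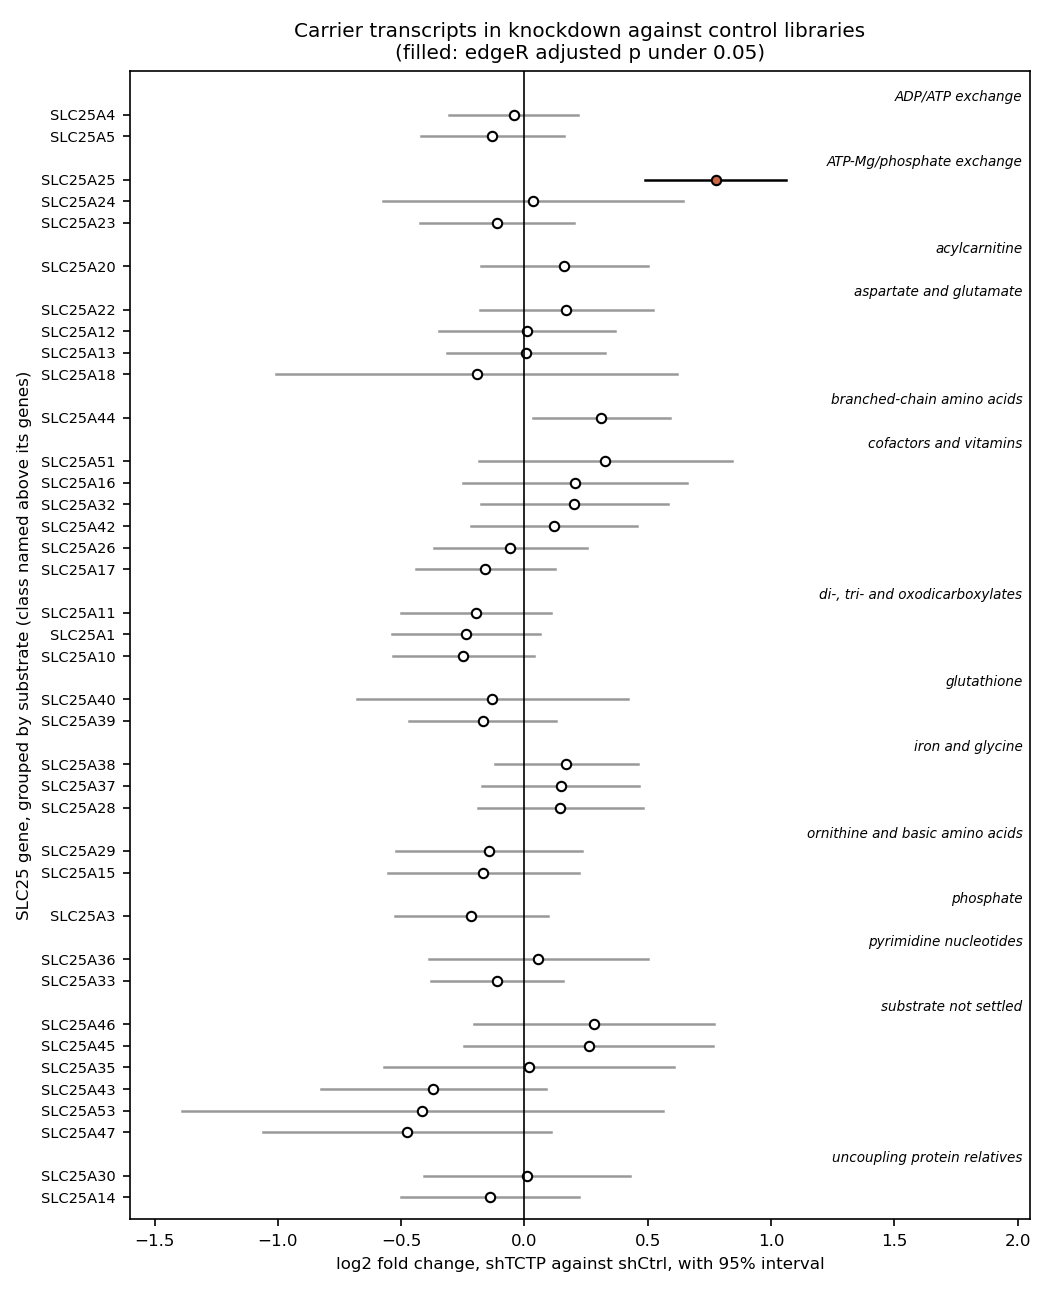
Log2 fold change of 38 of the 39 tested SLC25 transcripts (x axis, shTCTP against shCtrl, 3 libraries each) with 95% intervals from the edgeR fit, grouped by substrate. The filled point marks SLC25A25 at 0.78, the only one with an adjusted p under 0.05, while the others lie between -0.48 and 0.33.

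SLC25A25 (ENSG00000148339.12, GRCh38 chromosome 9, 128068201 to 128109245, plus strand) had 23.7, 26.6 and 25.3 CPM in control libraries and 44.5, 46.8 and 38.3 CPM in knockdown libraries. Every knockdown library lay above every control library, and the lowest knockdown value came from library 3. The group levels were 25.2 ± 1.43 and 43.2 ± 4.40 CPM (SD, n = 3 each), on counts of 705 to 767 reads for control and 1134 to 1391 reads for knockdown. The change was 1.71-fold (95% interval 1.41 to 2.09), or 0.78 on the log2 scale (SE 0.14, edgeR adjusted p = 0.00552), and it ranked 71 among all tested genes by p. Without knockdown library 3 the log2 fold change was 0.87. Without knockdown library 2 it was 0.70 and missed the threshold (edgeR adjusted p = 0.0570), and without any other library it passed. The edgeR adjusted p was 0.0337 to 0.0451 without a control library, 0.0151 without knockdown library 1 and 5.73e-05 without knockdown library 3. An antisense gene, SLC25A25-AS1, shares 665 bases with the end of SLC25A25, and whether counting used strand is not stated. SLC25A25-AS1 had 34 to 60 reads per library, 4.33% of the SLC25A25 total, with -0.03 (SE 0.30) as its log2 fold change. In bulk RNA, fewer cells of a kind and less RNA per cell cannot be told apart, and this holds for every change given here.

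The window around the RefSeq start of SLC25A25 is shown because this is the carrier that changed, beside those of SLC25A23 and SLC25A24, its relatives with the same calcium-regulated substrate exchange. Each runs 5′ to 3′ from 250 bases before the start to 50 bases of the transcript, read from RefSeq (GRCh38.p14). SLC25A25 is at chr9:128098257-128098556 on the plus strand, SLC25A23 at chr19:6459743-6460042 on the minus strand and SLC25A24 at chr1:108200294-108200593 on the minus strand. Capitals mark TGACG on either strand, the core of the cyclic AMP response element that CREB and ATF proteins recognise, including its full palindrome TGACGTCA.
SLC25A25: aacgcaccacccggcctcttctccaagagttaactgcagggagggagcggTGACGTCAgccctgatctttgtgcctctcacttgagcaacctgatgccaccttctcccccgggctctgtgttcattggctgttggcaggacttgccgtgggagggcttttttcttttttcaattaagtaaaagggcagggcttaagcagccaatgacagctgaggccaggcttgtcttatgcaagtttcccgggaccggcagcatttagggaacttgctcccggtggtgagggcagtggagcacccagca
SLC25A23: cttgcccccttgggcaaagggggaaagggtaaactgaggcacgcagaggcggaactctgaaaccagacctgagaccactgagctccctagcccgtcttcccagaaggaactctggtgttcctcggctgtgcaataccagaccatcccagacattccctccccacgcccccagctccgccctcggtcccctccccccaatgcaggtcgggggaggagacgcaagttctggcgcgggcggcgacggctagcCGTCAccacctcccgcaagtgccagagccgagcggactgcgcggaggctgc
SLC25A24: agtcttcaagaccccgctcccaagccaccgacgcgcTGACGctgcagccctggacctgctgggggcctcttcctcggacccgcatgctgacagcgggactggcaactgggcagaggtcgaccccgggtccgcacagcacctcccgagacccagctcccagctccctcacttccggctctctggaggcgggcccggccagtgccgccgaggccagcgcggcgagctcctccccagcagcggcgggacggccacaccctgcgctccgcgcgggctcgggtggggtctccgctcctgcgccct

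The SLC25A25 window held the full palindrome TGACGTCA 1 time, at positions -200 to -193 with the first transcribed base counted as 1, and also CCAAT on the plus strand at -51 to -47 and on the minus strand at -127 to -123. The SLC25A23 window held CCAAT at -56 to -52. CCAAT was in 18 of 37 carrier windows (48.6%) and in 35.7% of all. The SLC25A23 and SLC25A24 windows each held a single TGACG and no TGACGTCA. Across RefSeq windows of this length TGACGTCA was found in 1.98% of 27305 genes. Windows were matched for 37 of the 44 carriers, and 3 of these (8.11%) held it, in SLC25A25, SLC25A33 and SLC25A36. The other two, both carriers of pyrimidine nucleotides, had log2 fold changes of -0.11 (SE 0.13) and 0.06 (SE 0.21) and did not pass. TGACG alone was found in 14 carrier windows (37.8%) and in 25.01% of all windows, and it overlaps every full palindrome. The AP-1 letters TGACTCA or TGAGTCA were in 0 of the 37 carrier windows and in 4.92% of all, and the EGR letters GCGGGGGCG or GCGTGGGCG were in 2 (5.41%) and 5.70%. The CArG box was in 1 (2.70%), that of SLC25A46, and 1.29%. The ETS letters CCGGAAG were in 8 carrier windows (21.6%) and 10.7% of all, and those of ERR, AAGGTCA, in 1 (2.70%) and 3.97%. The NRF1 core GCATGCGC was in 0 and 3.27%. All motifs were searched on both strands. The carrier windows had a median GC content of 66.7%, against 58.3% for all. The 27305 comparison genes were not matched to the carriers in GC content, gene type or expression. SLC25A25 has 7 annotated transcript starts in GENCODE release 29, spread over 35521 bases, and 2 of them lie in the window shown. Gene-level counts do not tell these starts apart.

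The other ATP-Mg/phosphate carriers gave no such difference. SLC25A23 had 35.5, 33.0 and 37.7 CPM in control and 26.4, 34.4 and 37.5 CPM in knockdown libraries, with overlapping groups and a log2 fold change of -0.11 (95% interval -0.42 to 0.20). SLC25A24 had 3.31, 2.46 and 1.94 CPM in control and 1.82, 2.35 and 3.75 CPM in knockdown libraries, a log2 fold change of 0.04 with a wide interval of -0.57 to 0.64. SLC25A41, which lacks the calcium-binding part, was left untested at 2 to 11 reads per library. On the FPKM scale SLC25A25 stood at 0.522, 0.629 and 0.522 times SLC25A23 in control libraries and at 1.31, 1.06 and 0.796 times in knockdown libraries. This ratio was chosen after the values were seen and is given without a test. SLC25A25 was below SLC25A23 in all 3 control libraries and in knockdown library 3, and above it in the other two.

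**Figure D2:**
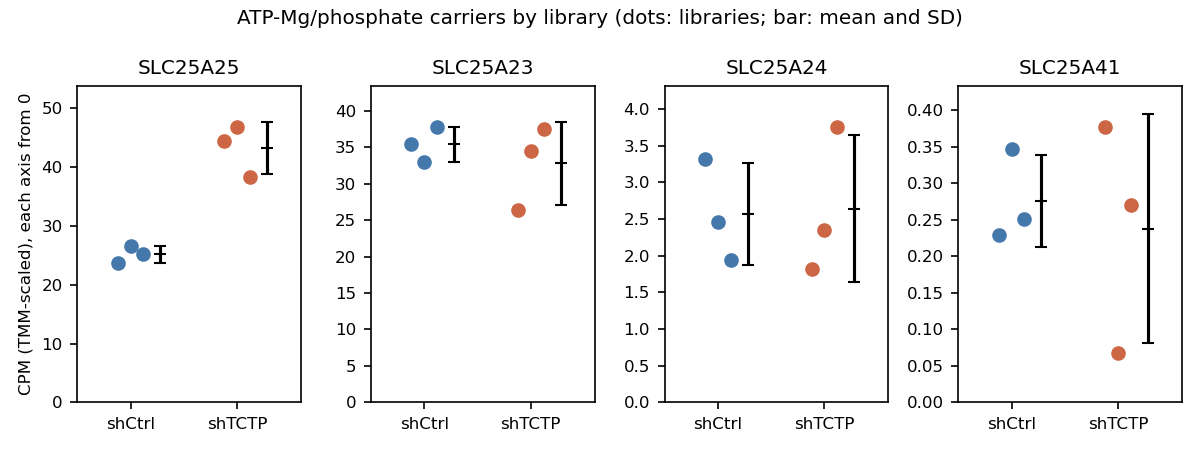
CPM of the 4 ATP-Mg/phosphate carriers (y axis, from 0) in shCtrl and shTCTP libraries, as dots in the order of library number, with the mean and SD beside them (n = 3). SLC25A25 is separate between groups at 23.7 to 26.6 and 38.3 to 46.8 CPM, and the other 3 overlap.

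SLC25A44, which carries branched-chain amino acids into mitochondria, came next by p. It had 25.1, 26.8 and 28.3 CPM in control and 32.6, 31.7 and 35.4 CPM in knockdown libraries, so the groups did not overlap. Its log2 fold change of 0.31 (SE 0.13, 95% interval 0.03 to 0.59) did not pass over all genes (edgeR adjusted p = 0.379). Separation of the groups was common in these data. Among tested carriers 3 (7.69%) were separate upwards, SLC25A25, SLC25A44 and SLC25A36, against 9.83% of all tested genes. Downwards 3 (7.69%) were separate, SLC25A17, SLC25A47 and SLC25A14, against 7.30% of all. These shares lie near the background.

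Taken as a family the carriers were centred on no change. Log2 fold changes were positive for 20 and negative for 19 members, with a median of 0.01 beside -0.00227 for all tested genes, and the median size without sign was 0.16 beside 0.17. For 35 of the 39 the whole 95% interval lay within a 2-fold change in either direction, and for 26 within 1.5-fold. The median SE was 0.16, against 0.18 over all tested genes. Leaving out 1 library moved 22 of 28 members examined in this way by over 1.5 times or changed their sign, and did not do so for SLC25A25, SLC25A44, SLC25A10, SLC25A37, SLC25A14 and SLC25A36. A miss at the threshold does not show equal levels, and changes smaller than these intervals were not resolved with 3 libraries a group.

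Levels were compared on the FPKM scale, to which no TMM scaling was applied here. The TMM factor was 1.17 for knockdown library 3 and 0.919 to 1.02 for the others, so changes between groups are read from CPM. SLC25A5, the ADP/ATP carrier of growing cells, was the most abundant of the analysed members at 276 ± 30.6 FPKM in control and 271 ± 17.2 FPKM in knockdown libraries (SD, n = 3 each). It was followed by SLC25A39, a glutathione importer, at 199 ± 15.9 and 192 ± 14.3 FPKM, and SLC25A1, the citrate exporter, at 152 ± 12.1 and 140 ± 18.5 FPKM (SD, n = 3 each). These 3 were the members above 100 FPKM on average. SLC25A3, the phosphate importer, stood at 84.1 ± 1.62 and 77.6 ± 3.75 FPKM, and SLC25A11, the oxoglutarate/malate exchanger, at 55.4 ± 7.04 and 51.9 ± 2.64 FPKM (SD, n = 3 each). The ranges of SLC25A5, SLC25A39 and SLC25A1 did not overlap in any group, so this order held in every library. In all, 30 members were above 1 FPKM and 11 above 10 FPKM. At the other end SLC25A34, SLC25A27, SLC25A48, SLC25A21 and SLC25A41 had at most 11 reads in any library and were not tested. SLC25A34 and SLC25A27 had no read in any knockdown library. A count of 0 allows up to 3 reads, or 0.101 to 0.103 CPM in these libraries, counting error only.

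**Figure D3:**
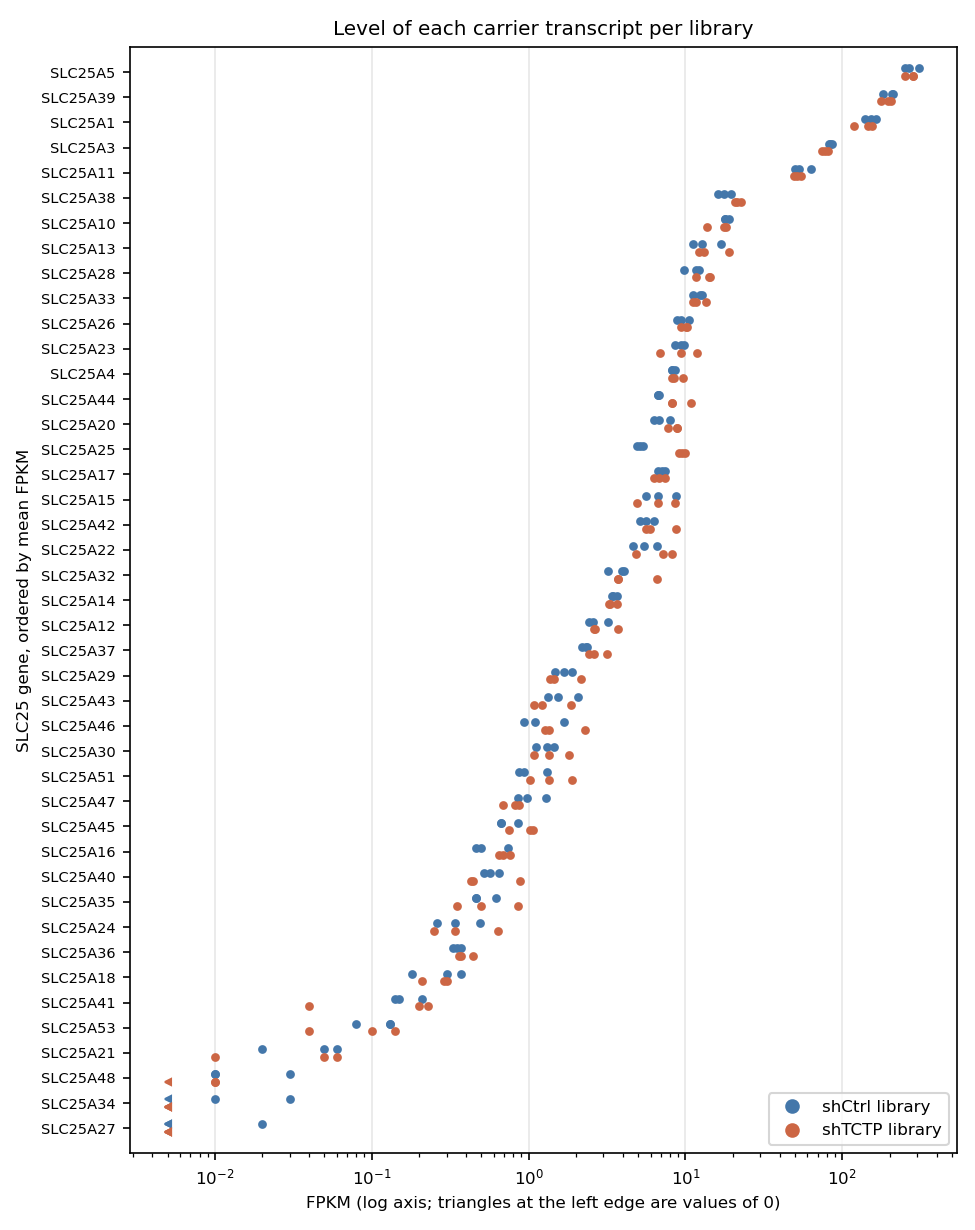
FPKM of 43 of the 44 SLC25 genes (log x axis), 1 dot per library, ordered by mean. SLC25A5, SLC25A39 and SLC25A1 lie above 100 FPKM, and SLC25A25 shows its 2 groups apart at 4.93 to 5.40 and 9.07 to 9.87 FPKM.

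Of the summed carrier FPKM, the ADP/ATP class took 29.8 ± 3.10% in control and 29.8 ± 0.874% in knockdown libraries (SD, n = 3 each), nearly all of it SLC25A5. SLC25A6 belongs to this class and is not part of these values, so the class share, the summed FPKM and the place of SLC25A5 hold for the analysed members only. The di- and tricarboxylate class took 23.6 ± 1.65 and 22.1 ± 0.558%, and glutathione 21.0 ± 1.68 and 20.5 ± 0.165%. The iron and glycine class took 2.94, 3.62 and 3.28% in control and 4.02, 4.06 and 3.96% in knockdown libraries, and the ATP-Mg/phosphate class 1.63, 1.54 and 1.53% in control and 1.89, 2.07 and 2.21% in knockdown libraries. The branched-chain amino acid class, SLC25A44 alone, took 0.700, 0.712 and 0.707% in control and 0.941, 0.873 and 1.08% in knockdown libraries. In these 3 classes every knockdown library had the larger share. They are named for that reason, and it held in no other class. In CPM each of the 3 iron and glycine carriers had overlapping groups. Shares sum to a fixed total, so a rise in one class lowers the others, and they were not tested. Within the ATP-Mg/phosphate class SLC25A25 went from 5.15 ± 0.236 to 9.47 ± 0.400 FPKM (SD, n = 3 each). In CPM, the scale with TMM, it went from 25.2 ± 1.43 to 43.2 ± 4.40 (SD, n = 3 each).

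**Figure D4:**
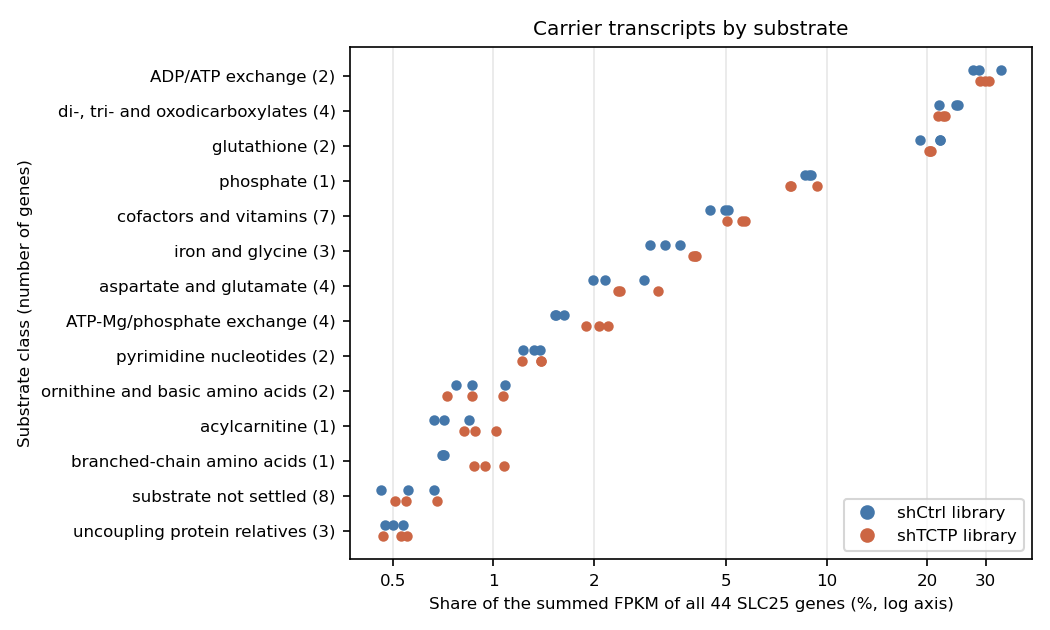
Share of the summed FPKM of the 44 SLC25 genes taken by each substrate class (log x axis, percent), 1 dot per library. ADP/ATP, carboxylate and glutathione carriers lead in every library, at 19.0 to 33.3%, and the iron and glycine, ATP-Mg/phosphate and branched-chain amino acid classes have separate groups. The shares were not tested.

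Carriers of carboxylates were all on the negative side, and none passed. SLC25A1, which exports the citrate used for fatty acid and sterol synthesis, had 256, 295 and 332 CPM in control and 230, 273 and 246 CPM in knockdown libraries, a log2 fold change of -0.24 (95% interval -0.54 to 0.06). SLC25A10, which exchanges malate or succinate for phosphate, had 37.0, 39.3 and 43.2 CPM in control and 30.3, 37.2 and 33.0 CPM in knockdown libraries, at -0.25 (95% interval -0.53 to 0.04). SLC25A11, part of the malate-aspartate shuttle, had 97.1, 131 and 114 CPM in control and 113, 98.1 and 87.9 CPM in knockdown libraries, at -0.20 (95% interval -0.50 to 0.11). In each the groups overlapped. The class median was -0.24, and SLC25A21, the oxodicarboxylate carrier, was too low to test. SLC25A3 likewise had 603, 626 and 644 CPM in control and 606, 531 and 476 CPM in knockdown libraries, at -0.22 (95% interval -0.53 to 0.10), with knockdown library 1 among the controls.

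The ADP/ATP carriers gave small estimates. SLC25A5 had 405, 349 and 388 CPM in control and 347, 376 and 320 CPM in knockdown libraries, with overlapping groups and a log2 fold change of -0.13 (95% interval -0.42 to 0.16). SLC25A4, the form best known from heart and muscle, had 39.2, 40.1 and 41.4 CPM in control and 39.5, 39.2 and 38.5 CPM in knockdown libraries, at -0.04 (95% interval -0.31 to 0.22). SLC25A5 has pseudogene copies that can share reads, and its value is uncertain to that extent, although SLC25A5P1 was given only 1 read over the 6 libraries. SLC25A39, with 305, 370 and 393 CPM in control and 315, 335 and 301 CPM in knockdown libraries, stood at -0.17 (95% interval -0.47 to 0.13), and its relative SLC25A40 at -0.13 (95% interval -0.68 to 0.42) on 54 to 94 reads per library.

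All 3 carriers that serve haem and iron had positive estimates near each other with all libraries, and none passed. SLC25A38, which brings in glycine for the first step of haem synthesis, had 35.0, 45.4 and 42.6 CPM in control and 47.8, 47.7 and 42.8 CPM in knockdown libraries, with control library 2 inside the knockdown range and a log2 fold change of 0.17 (95% interval -0.12 to 0.46). The mitoferrins SLC25A28 and SLC25A37, which import iron, both stood at 0.15, with SE 0.16 and 0.15. The class median was 0.15, but 0.07 without control library 1. There SLC25A28 stood at 0.02, SLC25A38 at 0.07 and SLC25A37 at 0.11. Without knockdown library 2 SLC25A28 stood at 0.04. SLC25A37 is the mitoferrin of red cell precursors, and per length it was the lower one here, at 2.29 ± 0.0777 FPKM against 11.2 ± 1.29 FPKM for SLC25A28 in control libraries (SD, n = 3 each).

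Amino acid carriers of the urea cycle and the malate-aspartate shuttle did not pass either. SLC25A13, citrin, the liver exchanger of aspartate for glutamate, had 55.6, 44.5 and 40.3 CPM in control and 45.4, 41.2 and 54.4 CPM in knockdown libraries, with a log2 fold change of 0.01 (95% interval -0.31 to 0.33) whose sign changed with the normalization. Its relative SLC25A12 stood at 0.01 (95% interval -0.35 to 0.37), also with a sign that changed with the normalization. SLC25A15, the ornithine/citrulline exchanger, had 14.1, 11.5 and 10.0 CPM in control and 8.50, 11.2 and 12.2 CPM in knockdown libraries, at -0.17 (95% interval -0.55 to 0.22). SLC25A29, which carries basic amino acids, stood at -0.14 and the glutamate carriers SLC25A22 and SLC25A18 at 0.17 and -0.19, the last on 13 to 26 reads per library. Groups overlapped in all of these.

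Of the cofactor carriers 5 had positive and 2 negative estimates, with none past the threshold. The class median was 0.12, but 0.0149 without control library 1 and 0.0190 without knockdown library 3. SLC25A51, the NAD carrier, had 3.05, 2.32 and 2.23 CPM in control and 3.32, 2.42 and 3.82 CPM in knockdown libraries, at 0.33 (95% interval -0.19 to 0.84), and at 0.19 without knockdown library 3. Its near-identical copy SLC25A52 can share reads with it, so the value is uncertain. SLC25A20, the acylcarnitine carrier of fatty acid oxidation, had 12.2, 16.4 and 14.6 CPM in control and 18.2, 15.3 and 14.9 CPM in knockdown libraries, at 0.16 (95% interval -0.18 to 0.50).

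The remaining members included carriers whose substrates are less settled. SLC25A47, known mainly from liver, had 1.80, 2.53 and 1.76 CPM in control and 1.61, 1.65 and 1.11 CPM in knockdown libraries, the lowest estimate with all libraries at -0.48, with a 95% interval of -1.06 to 0.11 on 33 to 73 reads per library. The groups were separate, by 1.76 against 1.65 CPM at the closest. Its estimate was -0.29 without control library 2 and -0.31 without knockdown library 3, where SLC25A43 was lower at -0.53. The 10 hepatocyte markers also had negative estimates, and their part in the SLC25A47 value was not tested. SLC25A43 stood at -0.37 (95% interval -0.82 to 0.09), and at -0.23 without control library 1. SLC25A46, an outer-membrane protein with a part in mitochondrial fission, stood at 0.28 (95% interval -0.20 to 0.77), with 0.09 without knockdown library 3 and 0.52 without control library 1. The uncoupling protein relative SLC25A14 had 6.76, 6.63 and 7.03 CPM in control and 6.34, 6.26 and 5.94 CPM in knockdown libraries, separate groups with an estimate of -0.14 (SE 0.17) that did not pass.

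Where 2 carriers share a substrate, their FPKM ratio was taken within each library, which removes library-wide scaling. SLC25A13 was 4.58 to 5.29 times SLC25A12 in control and 4.72 to 5.13 times in knockdown libraries, and the log2 ratio of SLC25A36 to SLC25A33 was -5.12 ± 0.116 in control and -4.96 ± 0.0615 in knockdown libraries (SD, n = 3 each). SLC25A39 was 279 to 397 times SLC25A40 in control and 232 to 452 times in knockdown libraries. Of 8 pairs compared, differences in log2 ratio between groups ran from -0.01 to 0.31. Exact permutation p, two-sided, ran from 0.2 to 1, each with an adjusted p of 1, and 3 libraries against 3 cannot give less than 0.1. The largest difference, for SLC25A22 over SLC25A18, lay between log2 ratios of 4.34 ± 0.503 and 4.65 ± 0.162 (SD, n = 3 each), which overlapped.

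**Figure D5:**
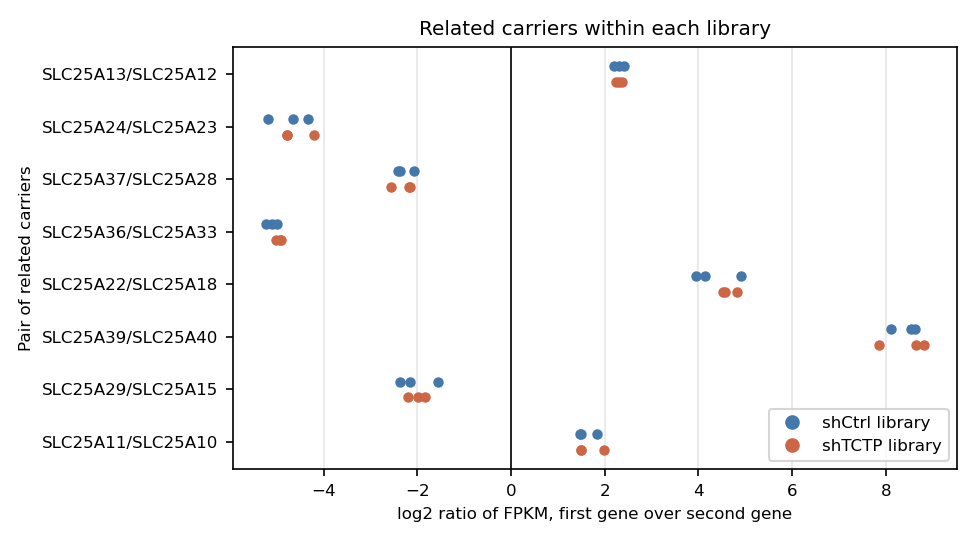
Log2 ratio of FPKM between related carriers (x axis) for 8 pairs, 1 dot per library. Groups overlap in each pair, and the preferred carrier of a pair is the same in all 6 libraries.

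Genes around the carriers were taken from 4 lists, and none of their members passed over all genes. Of 23 tested genes for other solute passages of mitochondrial membranes 0 rose and 0 fell, with a median log2 fold change of -0.03. SFXN3, a sideroflexin of the inner membrane, had 20.7, 26.4 and 23.1 CPM in control and 20.3, 17.8 and 20.1 CPM in knockdown libraries, separate groups at -0.27 on the log2 scale (SE 0.15, edgeR adjusted p = 0.520). Of 15 tested genes for the import of carrier proteins 0 passed, with a median of -0.08. TIMM22, the pore that inserts carriers into the inner membrane, had 43.6, 47.8 and 53.0 CPM in control and 60.5, 62.2 and 58.2 CPM in knockdown libraries (log2 fold change 0.33, SE 0.13, edgeR adjusted p = 0.332). TOMM20, a receptor of the outer membrane, had 159, 159 and 153 CPM in control and 141, 128 and 114 CPM in knockdown libraries (log2 fold change -0.29, SE 0.13, edgeR adjusted p = 0.397). Both genes had separate groups and neither passed. Over all tested genes 9.83% were separate upwards and 7.30% downwards, and the genes named from each list were picked by p.

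Of 24 tested enzymes that work beside the carriers 0 passed, with a median of -0.06. GLUD1, the matrix glutamate dehydrogenase, had 329, 268 and 275 CPM in control and 236, 204 and 229 CPM in knockdown libraries (log2 fold change -0.38, SE 0.14, edgeR adjusted p = 0.256). Its groups were separate. MDH1, the cytosolic malate dehydrogenase of the malate-aspartate shuttle, had 145, 136 and 133 CPM in control and 134, 92.5 and 84.9 CPM in knockdown libraries (log2 fold change -0.41, SE 0.16, edgeR adjusted p = 0.308), with knockdown library 1 among the controls. Without that library it was lower at -0.64 (edgeR adjusted p = 0.0393). Of 12 regulators of mitochondrial gene expression 0 passed, with a median of 0.09. PPRC1, a coactivator related to PGC-1, stood at 0.37 (SE 0.14, edgeR adjusted p = 0.267) and NRF1, a factor for nuclear genes of mitochondrial proteins, at 0.35 (SE 0.14, edgeR adjusted p = 0.362), both with separate groups. At an unadjusted p under 0.05 the lists, in the order given here, counted 1 of 23 (4.35%), 2 of 15 (13.3%), 3 of 24 (12.5%) and 2 of 12 (16.7%), beside 11.1% of all tested genes.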

How the data were processed

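Polyadenylated RNA of 6 HepG2 samples was sequenced as paired reads of 150 bases from directional libraries, per the labels' protocols. Both tables were deposited by the authors: raw counts of reads for each gene, and FPKM. bcl2fastq, TopHat2, edgeR and GRCh38 are named in the submitters' processing notes. For the counting tool, annotation and use of strand, the entry is: not given in the sources used here.

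Counts were tested with edgeR 4.0.16 (R 4.3.3) by the quasi-likelihood test after filterByExpr and TMM, group being the only term, with Benjamini-Hochberg adjustment over all 14197 tested genes. Standard errors come from the estimate and the F statistic. The fit was checked on simulated counts, drawn independently for each gene and library. That check does not cover an outlying library or cultures that are not separate. Positions came from GENCODE release 29 (GRCh38), matched for 44 of 44 members, and promoter windows from RefSeq. Alternatives were other normalizations, filters and dispersion settings, a replicate block, DESeq2 1.42.0, limma 3.58.1 (voom, and log2 FPKM with pseudocounts of 1 and 0.1), a length correction (loess span 0.3) and each library left out. Figures used matplotlib 3.10.9. Libraries of a group differed by more than counting noise (chi-square of 13.9 to 85.7 per degree of freedom).

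Members, lists and pairs were chosen with earlier results of these data known. Named were TPT1, members past the threshold, the 12 smallest p, the most abundant of each class, members of the pairs and, per list, where none passed, the 2 smallest p. Other members were named after their values were seen, to complete a class or a count. One carrier and a gene of the lists that the rule names are not reported here, although both enter the fit, the counts and the class values. TIMM29 was matched through its identifier. The marker PTPRC was not analysed here.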

Additional observations from a re-analysis of the deposited data

How the results depend on the processing

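The call for SLC25A25 held under all 17 other settings except without knockdown library 2, where 0 members were higher (0 to 1 with a library left out). Its log2 fold change ranged from 0.70 to 0.87, and no member was lower under any setting. Gene-wide counts moved more. Genes called higher numbered 111 with the replicate block, 246 with no filter, 254 with DESeq2 and 232 with the length correction, against 179. With a library left out they numbered 76 (without control library 2) to 300 (without knockdown library 3). Genes called lower numbered 71 with no filter, 60 with DESeq2, 6 and 11 with limma on log2 FPKM at pseudocounts of 1 and 0.1, 39 with the length correction and 3 to 43 with a library left out, against 21. Same-numbered libraries had correlations of deviations from the group mean of -0.23, 0.0015 and -0.20, and differently numbered ones of -0.18 to 0.29. With 3 libraries a group, deviations from a group mean are tied to each other, so these values cannot settle whether numbers mark shared batches. With the block SLC25A25 stood at 0.77 (edgeR adjusted p = 0.0194), and no member's call changed.

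With limma on log2 FPKM at pseudocounts of 1 and 0.1, the median of all tested genes was itself 0.0570 and 0.0908, against -0.00227 in the main fit. The medians of the ADP/ATP, pyrimidine nucleotide, uncoupling protein relative, glutathione and ornithine classes lay below it there, as in the main fit. At these settings the class median became 0.0149 and 0.0175 for ADP/ATP, 0.0186 and 0.0575 for pyrimidine nucleotides, and 0.0185 and 0.0313 for uncoupling protein relatives. For glutathione it was -0.0326 and -0.0539, and for ornithine -0.0358 and -0.0484. That of the carriers without a settled substrate, -0.18, became 0.00746 at a pseudocount of 1 and 0.00418 with a filter of 1 CPM, and that of aspartate and glutamate, 0.00750, changed sign with RLE, both other filters, DESeq2 and 3 of the 6 libraries left out. The ATP-Mg/phosphate median ran from -0.21 (without knockdown library 3) to 0.26 (without control library 1). Without knockdown library 3 glutathione stood at -0.27, SLC25A11 at -0.11, SLC25A3 at -0.13, SLC25A5 at -0.06 and SLC25A15 at -0.27. Enzymes beside the carriers had 0 to 1 lower with a library left out. Estimates near 0 changed sign. SLC25A13 was -0.00501 with RLE, -0.00711 with no filter, -0.00456 with a filter of 1 CPM, -0.00499 with DESeq2, -0.000674 with upper quartile and -0.10 to 0.15 with a library left out. SLC25A12 was -0.00221 with RLE, -0.00366 with no filter, -0.00132 with a filter of 1 CPM, -0.00230 with DESeq2 and -0.0659 to 0.0917 with a library left out. SLC25A24 was -0.0200 with the length correction, and -0.29 to 0.26 with a library left out. With a library left out SLC25A23 ranged from -0.210 to 0.0214 and SLC25A40 from -0.42 to 0.00186. The difference in log2 ratio changed sign with a library left out for SLC25A13/SLC25A12 (-0.0514 to 0.0520), SLC25A24/SLC25A23 (-0.10 to 0.33), SLC25A37/SLC25A28 (-0.0838 to 0.126), SLC25A39/SLC25A40 (-0.18 to 0.30), SLC25A29/SLC25A15 (-0.14 to 0.26) and SLC25A11/SLC25A10 (-0.10 to 0.17). With a filter of 1 CPM 37 members were tested, against 39. SLC25A53, a carrier without a settled substrate, was below 1 CPM in every library. Beyond such changes in the members tested, the cause of these shifts was not tested. Reads limit SLC25A18, SLC25A53 and the 5 untested members most.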
